A study of Mus musculus x Mus spretus with 8 samples.

Results

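The genes described here encode the nuclear complex through which Wnt signalling switches on transcription: the pygopus genes Pygo1 and Pygo2, their adaptors Bcl9 and Bcl9l, beta-catenin (Ctnnb1), and the TCF/LEF factors Tcf7, Tcf7l1, Tcf7l2 and Lef1. They were chosen by symbol, and all 9 were found among the 49670 genes of the count table. RNA was sequenced from Patski, a female fibroblast line of a hybrid between C57BL/6 and SPRET/EiJ (Mus spretus), grown in DMEM with 10% FBS at 37C and 5% CO2. There were 8 libraries, 2 each of wild type (WT), stc1 -/-, pygo1 -/- and rlim -/- cells. Stc1 encodes the secreted glycoprotein stanniocalcin 1, and Rlim an X-linked E3 ubiquitin ligase. Every group shares the hybrid background, and the knockout libraries of a group are described as independent mutants, so each may be a line of its own. The origin of the WT replicates is not described, so their spread may be technical, while the spread pooled in the tests also includes that between mutants. Reads covering a parental difference were counted separately as genome 1 or genome 2, and which parent is which is not stated in the labels.

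As background, a Wnt signal stops the destruction complex of APC, axin and GSK3 from marking beta-catenin for degradation. Beta-catenin then enters the nucleus and binds a TCF/LEF factor on DNA. BCL9 or BCL9L bridges beta-catenin to a pygopus protein, whose PHD finger reads methylated histone H3, and the assembled complex activates target genes such as Axin2. Without beta-catenin the TCF/LEF factors hold target genes down together with TLE co-repressors, and TCF7L1 is known mostly as a repressor. Beta-catenin also links cadherins to the actin skeleton at cell junctions.

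Total counts ran from 73128996 to 81500061 per library, of which 50.64 to 52.64% carried a genome. The median absolute log2 difference between the libraries of a pair was 0.10 within WT, 0.38 within Stc1, 0.21 within Pygo1 and 0.07 within Rlim, over 13066 genes. The other targeted genes were not reduced under their own labels: the log2 fold change against WT was 3.37 for Stc1 and 0.33 for Rlim, and neither passed (edgeR, adjusted p = 0.236 and 0.699). The labelled cell type was not matched by several of its defining markers. Of 11 fibroblast markers, 5 reached 1 CPM (counts relative to TMM-scaled library size) in every library. Of these, Vim and Fn1 were abundant, and Col1a1, Pdgfra and S100a4 lay between 1.12 and 13.2 CPM. Another 5 stayed under 1 CPM in every library, among them Col1a2, Thy1 and Lum. The summed level of the fibroblast list ran from 2446 to 5607 CPM. Of 9 epithelial markers, 3 reached 1 CPM in every library: Cldn2 and the kidney factor genes Pax2 and Pax8, the last pair at 455 to 1158 CPM. The epithelial keratin and junction genes Krt18, Krt19 and Cldn7 stayed under 1 CPM in every library, Krt8 and Epcam lay between 0.213 and 2.67 CPM, and Cdh1 was at 6.36 to 20.1 CPM in the WT and Stc1-label libraries and 0.201 to 0.514 in the others. The 5 endothelial markers summed to 1.56 to 100.6 CPM, and the highest sum, in Stc1-label replicate 2, was Cdh5 at 100.3 CPM with the other 4 at 0.24 CPM or less there. Of 7 immune markers, Csf1r (26.5 to 57 CPM) and Cd68 (1.81 to 7.61 CPM) reached 1 CPM in every library, 5 stayed under it and Cd3e was at 0 throughout.

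Per kilobase of exon, beta-catenin RNA was the most abundant of the 9 and Pygo1 RNA the least. Over the 8 libraries the mean level was 69.7 ± 6.85 CPM per kb (SD, n = 8) for Ctnnb1 and 53.2 ± 11 for Pygo2. It was 17.6 ± 5.84 for Bcl9l and 16.9 ± 3.67 for Bcl9, followed by 6.48 ± 1.63 for Tcf7l2 and 5.86 ± 1.53 for Tcf7. Tcf7l1 stood at 2.33 ± 0.808, Lef1 at 1.25 ± 0.682 and Pygo1 at 0.414 ± 0.382 CPM per kb. In WT the level per kb was 44.6 ± 2.42 for Pygo2 and 0.311 ± 0.00395 for Pygo1 (SD, n = 2), so nearly all pygopus RNA was Pygo2. Neighbours in this order were told apart in all 8 libraries at 5 of the 8 steps. The exceptions were Bcl9l against Bcl9, where Bcl9l was higher in 3 of 8 libraries and lower in both WT libraries, Tcf7l2 against Tcf7 (6 of 8), and Ctnnb1 against Pygo2 (7 of 8).

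**Figure D1:**
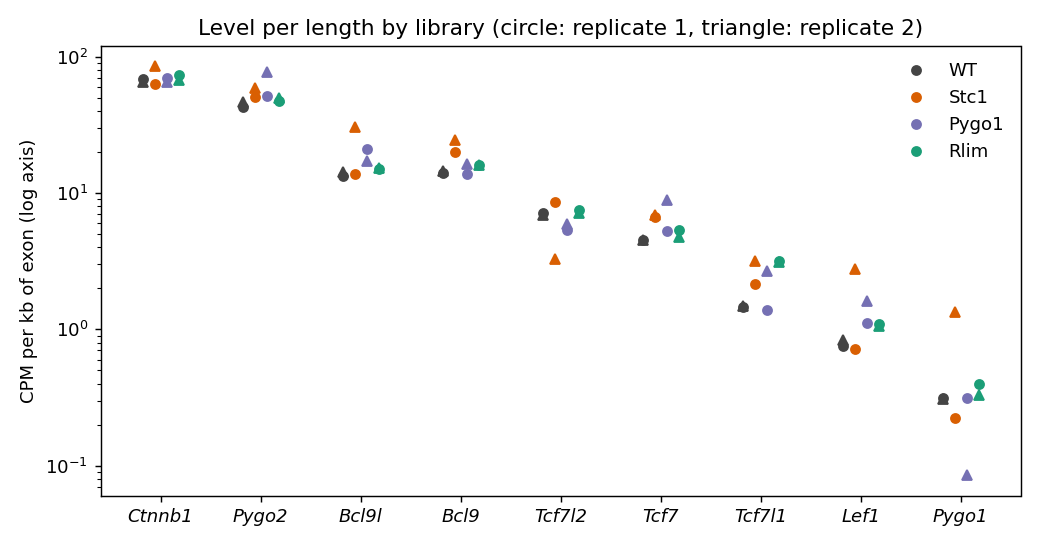
Level per kilobase of exon on a log axis for each gene, with 1 point per library, colour for the group and shape for the replicate. Ctnnb1 and Pygo2 stand at the top, and Pygo1 is the lowest gene with the widest scatter, from 0.0852 to 1.33 CPM per kb.

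Pygo1 (chromosome 9, 72925645 to 72952181, plus strand, GRCm38; 3 exon blocks) is the gene named by one of the labels. It stood at 2.49 and 2.44 CPM in WT and at 2.5 and 0.674 CPM in the Pygo1-label libraries. The first of these is at the WT level and the second at 0.273 times the WT mean, resting on 49 reads against 191 and 195 in WT. It stood at 1.79 and 10.5 CPM in the Stc1-label libraries and at 3.15 and 2.62 CPM in the Rlim-label ones. The highest Pygo1 RNA of the series was thus in Stc1-label replicate 2, at 4.28 times the WT mean, and the groups other than Rlim overlapped WT. The log2 fold change against WT was -0.63 ± 0.84 (SE, n = 2 per group) under its own label, 1.32 ± 0.84 under Stc1 and 0.23 ± 0.83 under Rlim, and none passed (edgeR quasi-likelihood test, Benjamini-Hochberg adjusted p = 0.715, 0.484 and 0.922). The first value became 0.018 without Pygo1-label replicate 2 and -1.87 without replicate 1 (edgeR, adjusted p = 0.997 and 0.403). The Stc1 value became 2.09 without Stc1-label replicate 1 and -0.47 without replicate 2. A count per gene cannot tell an edited transcript from an intact one, so each group is called by its label throughout. In bulk RNA, fewer cells with a transcript and less transcript per cell cannot be told apart.

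Pygo2 (chromosome 3, 89430214 to 89435128), the broadly expressed pygopus, was higher in every knockout library than in either WT library. It stood at 155.8 and 168 CPM in WT, 187 and 282 in the Pygo1-label libraries, 184 and 215 in the Stc1-label ones and 173 and 180 in the Rlim-label ones. The 2 Pygo1-label libraries differed by 1.51 times, and the one with less Pygo1 RNA had more Pygo2 RNA. The median log2 ratio to WT over chromosome 3 was 0.0487 in Pygo1-label replicate 1 and 0.314 in replicate 2. A link between the Pygo1 and Pygo2 levels was not tested. Fitted against WT, the changes in log2 were 0.53 ± 0.20, 0.30 ± 0.20 and 0.12 ± 0.20 (SE, n = 2 per group) for the Pygo1, Stc1 and Rlim labels, and none passed (edgeR, adjusted p = 0.199, 0.505 and 0.797). The Pygo1 value was 0.20 without Pygo1-label replicate 2 and 0.79 without replicate 1.

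Bcl9 (chromosome 3, 97203662 to 97297917) and Bcl9l (chromosome 9, 44482825 to 44511896) encode the adaptors between beta-catenin and pygopus. Bcl9 stood at 119 and 122 CPM in WT and at 169 and 207 in the Stc1-label libraries, where both were above both WT libraries. It stood at 116 and 138 CPM in the Pygo1-label libraries, on either side of WT, and at 135 and 135.5 in the Rlim-label ones. On the log2 scale the changes against WT were 0.64 ± 0.14 (Stc1), 0.07 ± 0.14 (Pygo1) and 0.16 ± 0.14 (Rlim; SE, n = 2 per group; edgeR, adjusted p = 0.119, 0.824 and 0.611). With each chromosome scaled to WT the Pygo1 value turned to -0.12. The Stc1 value passed in DESeq2 (adjusted p = 0.00788), where 956 genes were called. It ran from 0.48 to 0.77 in edgeR over the fits that left out 1 library. Bcl9l stood at 107 and 115 CPM in WT, 109.6 and 245 in the Stc1-label libraries, 169 and 137 in the Pygo1-label ones and 119 and 122 in the Rlim-label ones. Its high value in Stc1-label replicate 2 is 2.21 times the WT mean, while replicate 1 was at the WT level. The log2 fold changes of Bcl9l were 0.68 ± 0.34, 0.46 ± 0.33 and 0.12 ± 0.33 for Stc1, Pygo1 and Rlim (SE, n = 2 per group; edgeR, adjusted p = 0.377, 0.477 and 0.89). The Stc1 value was 1.14 without Stc1-label replicate 1 and -0.022 without replicate 2. The Pygo1 value passed when both Stc1-label libraries were left out of the shared fit (edgeR, adjusted p = 0.03), where 3676 genes were called. Exons of Bcl9l overlap antisense genes with at most 100 reads in a library.

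Ctnnb1 (chromosome 9, 120929216 to 120960507) had the narrowest range of the 9 genes, 0.42 in log2 CPM over the 8 libraries. It stood at 355 and 339 CPM in WT, 362 and 338 in the Pygo1-label libraries, 379.6 and 350.2 in the Rlim-label ones and 329.8 and 441 in the Stc1-label ones. All groups overlapped WT. Against WT the fitted log2 changes were 0.01 ± 0.16 (Pygo1), 0.07 ± 0.16 (Rlim) and 0.15 ± 0.16 (Stc1; SE, n = 2 per group; edgeR, adjusted p = 0.978, 0.858 and 0.681), and the Pygo1 and Stc1 values turned to -0.03 and -0.0073 with each chromosome scaled to WT. Beta-catenin is controlled mainly through protein stability, which RNA counts do not measure. The antisense gene Ulk4 shares exon bases with Ctnnb1 and held 717 to 1139 reads, against 23813 to 33113 for Ctnnb1, and whether counting used strand is not stated in the labels.

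Of the TCF/LEF factors, Tcf7l2 (chromosome 19, 55741820 to 55933654) had the highest CPM. Per kilobase of exon, Tcf7l2 was above Tcf7 in 6 of 8 libraries. It stood at 63 and 60.6 CPM in WT, 47.2 and 51.9 in the Pygo1-label libraries, 75.7 and 28.6 in the Stc1-label ones and 65.7 and 62.6 in the Rlim-label ones. Both Pygo1-label libraries were below both WT libraries, whereas the Stc1-label pair lay on either side of WT, at 1.22 and 0.463 times its mean. Log2 changes against WT came to -0.32 ± 0.38 (Pygo1), -0.25 ± 0.38 (Stc1) and 0.05 ± 0.38 (Rlim; SE, n = 2 per group; edgeR, adjusted p = 0.68, 0.794 and 0.959). Under the Pygo1 label Tcf7l2 passed with both Stc1-label libraries left out (edgeR, adjusted p = 0.0413), where 3676 genes were called. The Stc1 value was -1.12 without Stc1-label replicate 1 and 0.29 without replicate 2.

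Tcf7l1 (chromosome 6, 72626378 to 72789254), the mainly repressive family member, had 5.74 and 5.79 CPM in WT. It was at 12.4 and 12.3 CPM in the Rlim-label libraries, 8.45 and 12.6 in the Stc1-label ones and 5.49 and 10.4 in the Pygo1-label ones. The Rlim-label pair was 2.15 and 2.13 times the WT mean, and the Pygo1-label pair lay on either side of WT. The fit gave log2 changes against WT of 1.097 ± 0.33 (Rlim), 0.86 ± 0.32 (Stc1) and 0.47 ± 0.32 (Pygo1; SE, n = 2 per group; edgeR, adjusted p = 0.148, 0.267 and 0.461). The Rlim value passed in DESeq2 (adjusted p = 0.0241), where 1407 genes were called. It passed in the Rlim-label and WT libraries alone (edgeR, adjusted p = 6.99e-24, in a fit that called 8340 genes). With both Stc1-label libraries left out it also passed (edgeR, adjusted p = 0.0395, in a fit that called 3050 genes). The Stc1 value was 1.11 without Stc1-label replicate 1, and the Pygo1 value turned to -0.076 without Pygo1-label replicate 2. Tcf7l1 overlaps an antisense gene with at most 11 reads in a library.

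Tcf7 (chromosome 11, 52252371 to 52283014) and Lef1 (chromosome 3, 131110471 to 131224356) are TCF/LEF genes that Wnt signalling itself can induce in other tissues. Tcf7 stood at 11.8 and 11.9 CPM in WT, 17.4 and 18 in the Stc1-label libraries, 13.8 and 23.4 in the Pygo1-label ones and 14.1 and 12.5 in the Rlim-label ones. All 6 knockout libraries were above both WT libraries, with log2 fold changes of 0.58 ± 0.24, 0.65 ± 0.24 and 0.17 ± 0.24 (SE, n = 2 per group; edgeR, adjusted p = 0.307, 0.2 and 0.772). Leaving out Pygo1-label replicate 2 or 1 brought the Tcf7 value under the Pygo1 label to 0.21 or 0.98. Lef1 stood at 6.66 and 7.34 CPM in WT, 6.3 and 24.4 in the Stc1-label libraries, 9.82 and 14.3 in the Pygo1-label ones and 9.54 and 9.26 in the Rlim-label ones. Stc1-label replicate 2 was again the highest, at 3.49 times the WT mean, and replicate 1 of that label lay below WT. The log2 fold changes of Lef1 were 1.13 ± 0.55 (Stc1), 0.78 ± 0.55 (Pygo1) and 0.43 ± 0.55 (Rlim; SE, n = 2 per group; edgeR, adjusted p = 0.37, 0.466 and 0.739). The Stc1 value was 1.80 without Stc1-label replicate 1 and -0.16 without replicate 2. Under the Pygo1 label Lef1 passed with both Stc1-label libraries left out (edgeR, adjusted p = 0.0302), where 3676 genes were called. The Rlim value of Lef1 passed in the Rlim-label and WT libraries alone (edgeR, adjusted p = 0.000291), in the fit that called 8340 genes.

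**Figure D2:**
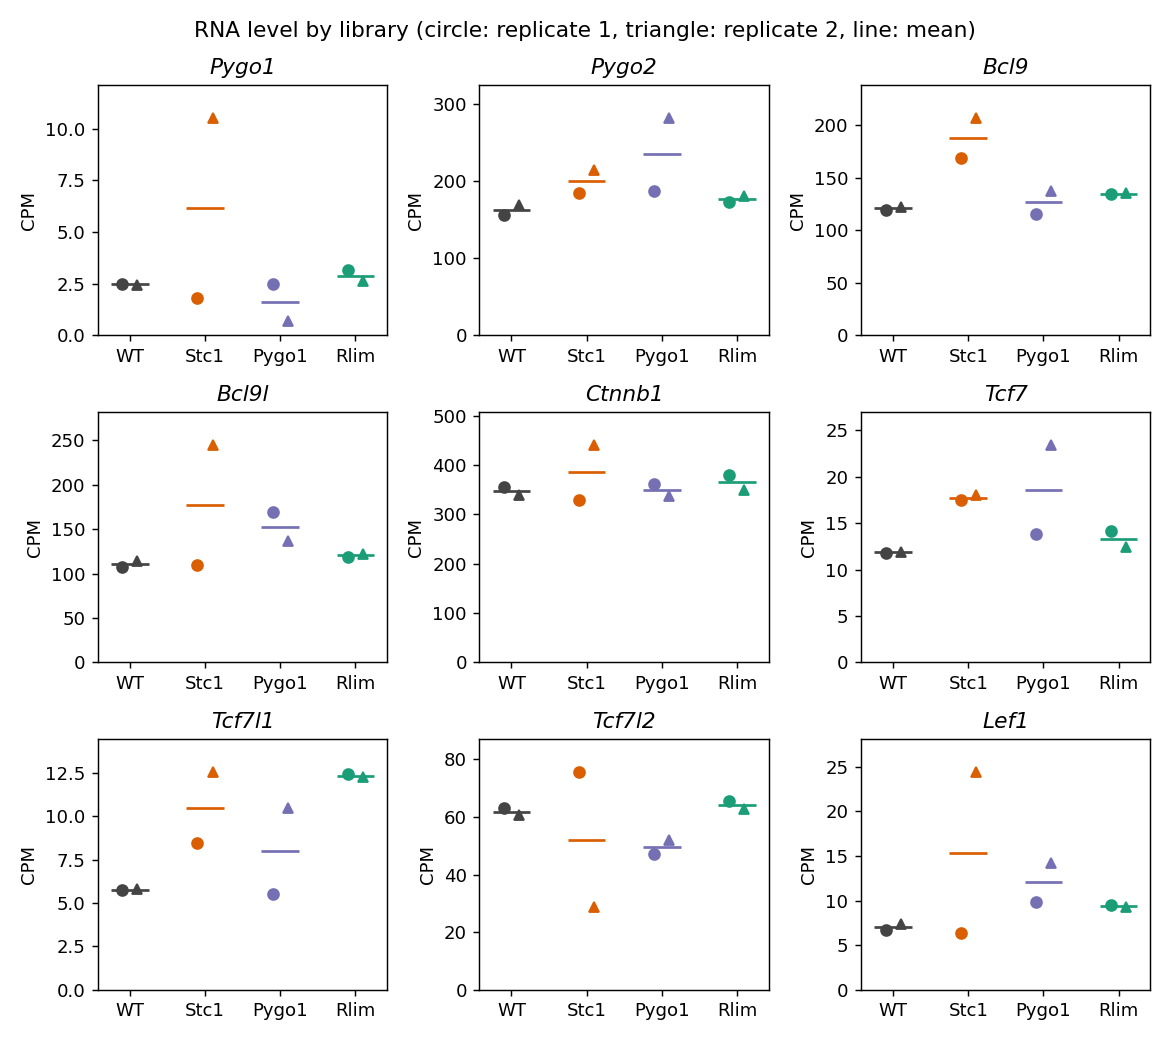
CPM of each gene in each library on a linear axis from 0, by group label, with circles for replicate 1, triangles for replicate 2 and a line at the mean of the pair. Stc1-label replicate 2 holds the highest value for Pygo1, Bcl9, Bcl9l, Ctnnb1, Tcf7l1 and Lef1 and the lowest for Tcf7l2, and the 2 Pygo1-label libraries differ most for Pygo1. In Stc1-label replicate 2 the median log2 ratio to WT over all tested genes was 0.268 on chromosome 9 and 0.299 on chromosome 3. It was -0.302 on chromosome 19 and -0.275 on chromosome 6.

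None of the 9 genes (0) passed in any comparison with WT over the 17839 genes tested, all 9 being among those tested. At an unadjusted p under 0.05 there were 3 under the Stc1 label, 2 under Pygo1 and 1 under Rlim in edgeR, all higher than WT. DESeq2 called 1, 0 and 1 of the 9, against 956, 1688 and 1407 of all genes. In edgeR the share of all genes called at an adjusted p under 0.05 was 0.577% for Stc1, 2.35% for Pygo1 and 1.4% for Rlim. The share at an unadjusted p under 0.05 was 16, 20.6 and 17.9%. Both knockout libraries lay above both WT libraries for 4 of the 9 under Stc1, 4 under Pygo1 and 7 under Rlim, against 22.2, 29.6 and 35.7% of all genes, and both lay below for 0, 1 and 0, against 22.2, 31 and 35.6%. The median log2 fold change of the 9 was 0.64, 0.46 and 0.16, against 0.014, -0.0012 and 0.0065 over all genes. These 3 comparisons share the WT libraries, so their directions are not independent. Simulated data drew each gene independently, with its fitted spread shared by all groups. There, 17% of 2-fold and 68% of 4-fold changes were recovered for the Pygo1 label against WT (over 17467 genes). Of the calls, 12.4% were false. The spread within pairs differed between the groups here, so these rates may not carry over.

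**Figure D3:**
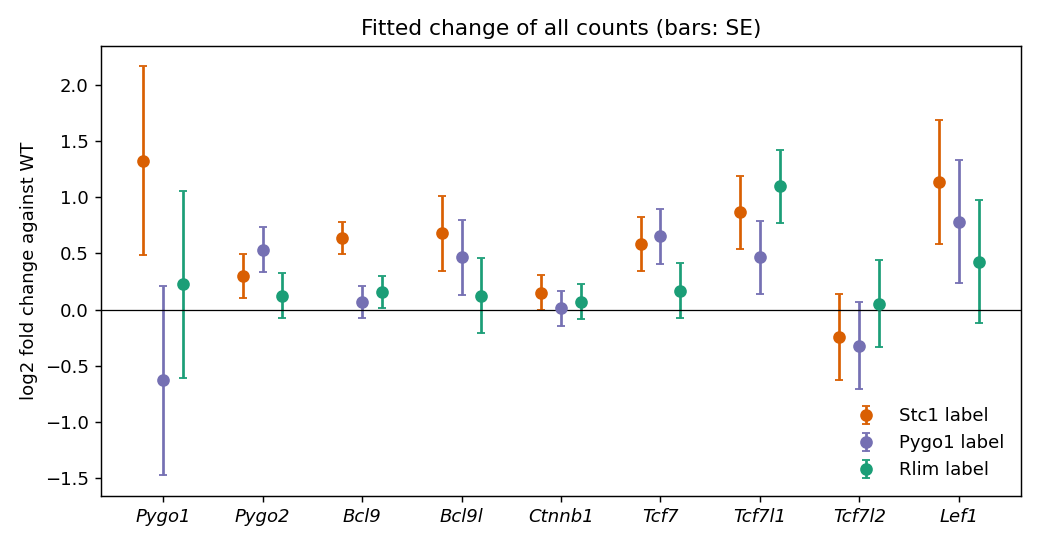
Fitted log2 fold change against WT for each gene and label, with bars of 1 SE. The widest bars belong to Pygo1 and Lef1 under the 3 labels, and none of the values shown passed the edgeR test over all genes.

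The knockout labels were also compared with each other. Between the Pygo1 and Stc1 labels 0 of the 9 passed in edgeR (1 at an unadjusted p under 0.05), with 1.74% of all genes called and 17.4% at an unadjusted p under 0.05. DESeq2 called 1 of the 9, against 1308 of all genes. Bcl9 had the smallest adjusted p, being lower in both Pygo1-label libraries than in both Stc1-label ones, at a log2 difference of -0.57 ± 0.14 (SE, n = 2 per group; edgeR, adjusted p = 0.107; DESeq2, adjusted p = 0.022). With each chromosome scaled to WT that difference was -0.63 and passed (edgeR, adjusted p = 0.0264). Pygo1 RNA differed by -1.95 ± 0.86 between these labels (edgeR, adjusted p = 0.304). That difference was -2.72 without Stc1-label replicate 1 and -0.16 without replicate 2, and -3.19 without Pygo1-label replicate 1. Between the Pygo1 and Rlim labels 0 of the 9 passed in edgeR (0 at an unadjusted p under 0.05; DESeq2 called 0), with 1.02% of all genes called and 16.2% at an unadjusted p under 0.05, and the log2 difference was -0.86 ± 0.84 for Pygo1 and 0.41 ± 0.20 for Pygo2 (edgeR, adjusted p = 0.671 and 0.37).

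Reads assigned to a genome set the members apart more sharply than their totals did. In WT, 5 of the 9 genes were read almost wholly from 1 genome. For the chromosome 9 genes, genome 2 gave 0 of 132 and 1 of 137 reads of Pygo1. It gave 1.65 and 1.23% of the reads of Bcl9l, and 1.25 and 1.07% of those of Ctnnb1. Lef1 had 0 of 311 and 1 of 341 reads from genome 2. Tcf7 was the reverse, with 3 of 571 and 4 of 611 reads from genome 1. The other 4 used both genomes in WT, with genome 1 at 78.3 and 78.2% for Pygo2 and 75.4 and 76.5% for Bcl9. It stood at 73.8 and 75.6% for Tcf7l2 and 73.5 and 73.8% for Tcf7l1. These shares lay close to the medians of their chromosomes in WT replicates 1 and 2: 98.6 and 98.7% genome 1 on chromosome 9, 1.63 and 1.8% on chromosome 11, 79.8 and 79.4% on chromosome 3, 75.4 and 75.6% on chromosome 19, and 72 and 72% on chromosome 6. Lef1 was the exception, read from genome 1 alone on a chromosome that used both, while the 10 nearest genes with enough reads had a median of 91.7 and 92.9%.

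All Pygo1 reads with a genome came from genome 1, apart from 1 read in WT replicate 2. Genome 1 gave 156 of 156 reads in Pygo1-label replicate 1 and 32 of 32 in replicate 2. A count of 0 for genome 2 allows a share of up to 1.92 and 9.38% (3 reads of the total, counting error only). The genome 1 level was 1.96 and 0.44 CPM, against 1.72 and 1.7 in WT, so the difference between the 2 Pygo1-label libraries lay in genome 1 reads. In Stc1-label replicate 2, where Pygo1 RNA was highest, genome 1 gave 578 of 578 reads.

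In the Pygo1-label libraries, Pygo2, Bcl9 and Tcf7l2 lost almost all reads from genome 2. Genome 2 fell from 21.6 and 21.8% of Pygo2 reads in WT to 0.199% (95% Wilson interval 0.128 to 0.311%) and 0.165% (0.109 to 0.249%). For Bcl9 it fell from 24.6 and 23.5% to 0.341% (0.207 to 0.562%) and 0.144% (0.0696 to 0.296%), and for Tcf7l2 from 26.2 and 24.4% to 0.498% (0.229 to 1.08%) and 0.441% (0.188 to 1.03%). The log2 ratio of genome 1 to genome 2 differed from WT by 7.25 ± 0.21 for Pygo2, 7.09 ± 0.40 for Bcl9 and 6.13 ± 0.24 for Tcf7l2 (SE, n = 2 per group; edgeR, adjusted p = 3.02e-05, 0.000224 and 6.47e-05). These 3 shifts passed under each alternative tried. Bcl9l, a gene of chromosome 9, also passed at a much smaller change of share, from 98.6 to 99.9% genome 1 over the pooled reads (3.43 ± 0.73; edgeR, adjusted p = 0.0276), and its call ended without WT replicate 1 or 2 (edgeR, adjusted p = 0.159 and 0.125), and in a fit of the Pygo1-label and WT libraries only (edgeR, adjusted p = 0.0566). Ctnnb1 missed the threshold (2.79 ± 0.72; edgeR, adjusted p = 0.0502) and passed without either Stc1-label or either Pygo1-label library (edgeR, adjusted p = 0.00748 to 0.0402). Tcf7 moved the other way, with 0 of 702 and 0 of 1033 reads from genome 1, and missed the threshold (-5.39 ± 1.27; edgeR, adjusted p = 0.052). It passed in a fit of the Pygo1-label and WT libraries only (edgeR, adjusted p = 0.0499), where 1404 genes passed. Thus 4 of the 9 genes passed toward genome 1, against 11.9% of the 12476 genes tested. The neighbours stood likewise. The median genome 1 share over the 10 nearest genes with enough reads was 79.6 and 79.6% in WT and 99.9 and 99.9% under the Pygo1 label around Pygo2. It was 78.2 and 77.8% against 99.8 and 99.9% around Bcl9, and 77 and 76.7% against 99.6 and 99.2% around Tcf7l2. The whole of chromosome 3 had a median of 99.8 and 99.8% in these libraries, so the loss was shared by the chromosome. On chromosome 19 the median was 91.7% in Pygo1-label replicate 1 and 99.5% in replicate 2.

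Tcf7l1 had no or few genome 2 reads under the Rlim and Pygo1 labels. In the Rlim-label libraries genome 2 gave 0 of 522 and 0 of 541 reads, which allows shares of up to 0.575 and 0.555%, against 26.5 and 26.2% in WT. With 3 reads per library taken as the floor, the genome 2 level was at least 21.5-fold lower than the WT mean of 0.836 CPM. The shift passed (edgeR, adjusted p = 0.036), as 1 of the 9 genes toward genome 1 against 9.49% of all genes tested, and the call ended without either WT, Stc1-label or Rlim-label library, where the adjusted p ran from 0.0772 to 0.22. In the Pygo1-label libraries genome 2 gave 2.97% (1.44 to 6%) of the reads in replicate 1 and 0 of 425 in replicate 2, which allows up to 0.706%. That shift did not pass with both libraries (edgeR, adjusted p = 0.0571) and passed without replicate 1 or replicate 2 (edgeR, adjusted p = 0.00028 and 0.00283). The 10 nearest genes with enough reads lay in a window of 9.5 Mb. Their median genome 1 share was 97.3 and 95.2% in the Rlim-label libraries and 92.6 and 98.3% in the Pygo1-label ones, against 68.5 and 67.4% in WT. Chromosome 6 had a median of 94.9 and 99.8% under Pygo1 and 99.7 and 99.8% under Rlim.

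In the Stc1-label libraries the 4 genes that used both genomes in WT still did so. Genome 1 stood at 74.8 and 68.9% for Pygo2, 71.7 and 74.6% for Bcl9, 76.6 and 70.1% for Tcf7l2 and 68 and 67% for Tcf7l1. Bcl9l was the single member that passed there, from 98.6 to 99.9% (4.002 ± 0.76 on the log2 ratio; edgeR, adjusted p = 0.0479), toward genome 1, against 1.07% of all genes, and its call ended when any WT, Stc1-label or Rlim-label library was left out. The trace of genome 2 in Bcl9l and Ctnnb1 was larger in both WT libraries than in any knockout library. It was 37 and 32 reads of Bcl9l in WT, against 2 to 9 in the 6 knockout libraries, and 96 and 81 reads of Ctnnb1, against 6 to 24. Between knockout labels, 3 members passed toward genome 1 in Pygo1 against Stc1, 3 in Pygo1 against Rlim and 1 in Rlim against Stc1, against 9.19, 8.98 and 10.4% of all genes. Chromosome 9 as a whole had a median of 98.6 and 98.7% genome 1 in WT and 99.87 to 99.93% in the knockout libraries.

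**Figure D4:**
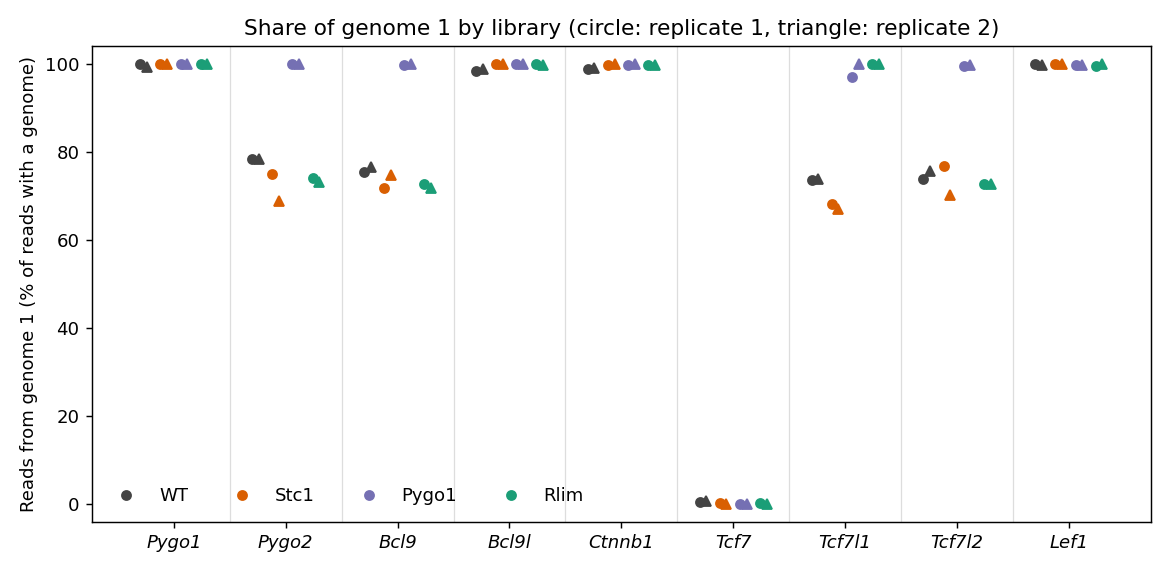
Percent of reads with a genome that came from genome 1, for each gene and library, by group colour and replicate shape. Pygo1, Bcl9l, Ctnnb1 and Lef1 lie at the top and Tcf7 at the bottom in every library, while Pygo2, Bcl9 and Tcf7l2 reach the top under the Pygo1 label and Tcf7l1 under the Pygo1 and Rlim labels.

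The genes that lost genome 2 differed in how much RNA remained. For Pygo2 the sum of both genomes was 97 and 104.7 CPM in WT and 120 and 184 CPM in the Pygo1-label libraries, all but 0.239 and 0.303 CPM of it from genome 1. The genome 1 level of Pygo2 was 1.51 and 2.32 times the WT mean. For Bcl9 the sum was 55.7 and 58.5 CPM in WT and 55.4 and 67.1 CPM in the Pygo1-label libraries, with genome 1 at 1.27 and 1.54 times its WT mean. For Tcf7l2 the sum was below WT, at 15.2 and 15.6 CPM against 19 and 18.2, with genome 1 at 1.08 and 1.12 times its WT mean. Over all genes of chromosome 3 read on genome 1 the median of that ratio was 1.29 and 1.54, and over those of chromosome 19 it was 1.26 and 1.26. Pygo2 thus stood above its chromosome's median in both libraries, Bcl9 at about that median and Tcf7l2 below it. For Tcf7l1 in the Rlim-label libraries the sum was 6.84 and 6.95 CPM, all from genome 1, against 3.1 and 3.25 in WT. Its genome 1 level was 2.93 and 2.98 times the WT mean, where the median over chromosome 6 was 1.08 and 1.08. In the Pygo1-label libraries the sum for Tcf7l1 was 2.97 and 5.85 CPM, with genome 1 at 1.23 and 2.5 times the WT mean and the chromosome 6 median at 1.06 and 1.1.

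Genome 1 counts were fitted by themselves, a test added after these values were seen. The test did not scale chromosomes, so a change shared by a chromosome counts in it. The median genome 1 ratio to WT over chromosome 3 was 1.29 and 1.54 in the Pygo1-label libraries. Over chromosome 6 it was 1.08 and 1.08 in the Rlim-label ones. Genome 1 counts of Pygo2 rose 1.92-fold under the Pygo1 label (log2 0.94 ± 0.21, SE, n = 2 per group; edgeR, adjusted p = 0.0345), and those of Tcf7l1 rose 2.95-fold under the Rlim label (1.56 ± 0.35; edgeR, adjusted p = 0.0371). These were the members called, 1 in each comparison and 0 under Stc1 (edgeR, 1 at an unadjusted p under 0.05), against 4.02, 6.13 and 0.857% of 13418 genes called higher. DESeq2 was not run on these counts. Both calls ended without either WT library or either Rlim-label library: the adjusted p of Pygo2 was then 0.0988 to 0.262 and that of Tcf7l1 0.199 to 0.269. The Pygo2 call also ended without Pygo1-label replicate 2 (0.60; edgeR, adjusted p = 0.0831). The genome 1 change was 0.49 ± 0.18 for Bcl9 and 0.14 ± 0.40 for Tcf7l2 under the Pygo1 label (edgeR, adjusted p = 0.133 and 0.871), and 0.90 ± 0.35 for Tcf7l1 (edgeR, adjusted p = 0.156).

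**Figure D5:**
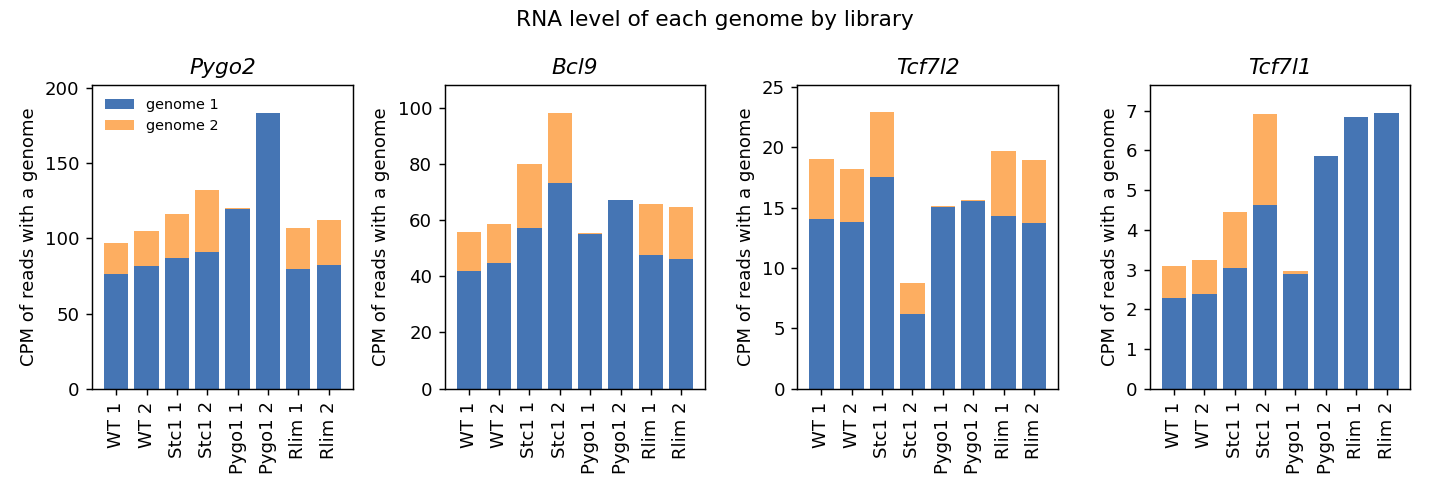
Stacked bars of the CPM of reads from genome 1 and genome 2 in each library, for the 4 genes that used both genomes in WT. Genome 2 is almost absent for Pygo2, Bcl9 and Tcf7l2 in the Pygo1-label libraries and for Tcf7l1 in the Pygo1-label and Rlim-label ones. The genome 1 bar stands at 120 and 183 CPM for Pygo2 under Pygo1, and for Tcf7l1 at 2.88 and 5.85 CPM under Pygo1 and 6.84 and 6.95 CPM under Rlim.

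The rest of the pathway was read from 5 lists of 93 genes, of which 82 were tested. Over all genes, 16, 20.6 and 17.9% had an unadjusted p under 0.05 for Stc1, Pygo1 and Rlim, and 0.577, 2.35 and 1.4% passed. Of 19 genes of the destruction complex and its regulators, 0 passed under any label in edgeR (3, 2 and 3 at an unadjusted p under 0.05 for Stc1, Pygo1 and Rlim), with median log2 fold changes of -0.13, -0.11 and -0.06. Of 26 tested co-activator genes 0 passed (5, 4 and 2 unadjusted; medians 0.09, -0.05 and 0.05). Of 15 co-repressor and inhibitor genes 0 passed (2, 4 and 3 unadjusted; medians 0.05, -0.15 and 0.05). Of 6 tested junction partners of beta-catenin 0 passed, with 0 at an unadjusted p under 0.05. DESeq2 called 6, 7 and 5 of the 82 tested genes over the 5 lists, against 956, 1688 and 1407 of all genes. Among the 16 tested TCF target genes, 0 passed under Stc1 (6 at an unadjusted p under 0.05, all higher), and 2 rose under Pygo1 and the same 2 under Rlim; the medians were 0.46, 0.30 and 0.10. Both were weakly expressed. Notum, which encodes a secreted Wnt deacylase, stood at 0.221 and 0.276 CPM in WT, 2.09 and 1.23 under Pygo1, 2.74 and 1.81 under Rlim and 0.789 and 1.2 under Stc1. Its log2 fold change was 2.73 ± 0.42 under Pygo1 and 3.19 ± 0.43 under Rlim (SE, n = 2 per group; edgeR, adjusted p = 0.0323 and 0.0282), and it overlaps antisense genes. Ascl2, a basic helix-loop-helix factor gene, had 3 and 2 reads in WT, 27 and 20 under Pygo1 and 27 and 37 under Rlim (edgeR, adjusted p = 0.0383 and 0.0351). The edgeR calls of Notum and Ascl2 did not hold when either WT library or either Rlim-label library was left out. Those under Pygo1 did not both hold without Pygo1-label replicate 1. With both Stc1-label libraries left out, 16 listed genes passed under Pygo1 and 14 under Rlim in edgeR, against 3676 and 3050 of all genes.

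The feedback genes Axin2 and Nkd1 were singled out after their values were seen. Axin2, the general reporter gene of beta-catenin and TCF activity, stood at 3.78 and 3.56 CPM in WT, 14.1 and 14.6 in the Pygo1-label libraries, 7.78 and 48.8 in the Stc1-label ones and 6.88 and 7.2 in the Rlim-label ones. It was higher in all 6 knockout libraries than in either WT library, and the highest value was in Stc1-label replicate 2. That library also held the highest values of Pygo1, Bcl9, Bcl9l, Ctnnb1, Tcf7l1 and Lef1 and the lowest of Tcf7l2. A link between these levels and Axin2 was not tested. In log2 terms the fit gave 1.96 ± 0.71 under Pygo1, 2.95 ± 0.74 under Stc1 and 0.94 ± 0.70 under Rlim (SE, n = 2 per group; edgeR, adjusted p = 0.189, 0.149 and 0.536). Nkd1, an antagonist of Dishevelled, stood at 3.84 and 4.35 CPM in WT, 19.6 and 7.86 under Pygo1, 6.18 and 36.8 under Stc1 and 6.03 and 5.74 under Rlim, and passed under none of them. Further genes of the list were mixed in direction, and the following passed under no label. The log2 fold change under Stc1, Pygo1 and Rlim was 1.125, 0.36 and 0.65 for Rnf43 and -0.11, -0.27 and -0.24 for Znrf3. It was 0.94, -0.91 and -0.63 for Nkd2 and 0.49, 0.09 and -0.33 for Apcdd1. For Lgr5, with a mean under 1 CPM in each group, it was 2.66, -0.35 and 0.93.

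The genes whose pattern over the 8 libraries was most like that of Pygo1 were sought among the 2333 tested genes with a mean CPM within a factor of 2 of its own. Among the smallest root mean square differences in mean-centred log2 CPM were 0.35 for Gm11110, 0.45 for Hsd17b2 and 0.50 for Panx1. Each of these had its highest value in Stc1-label replicate 2 and its lowest in Pygo1-label replicate 2: 13.5 and 1.57 CPM for Gm11110 and 8.98 and 1.84 CPM for Hsd17b2. Lef1 had the widest range of the other members, 1.95 in log2 CPM against 3.94 for Pygo1. The genes most like it among 3442 were Slc22a15 (0.18), Ciart (0.20), Mapkapk3 (0.20) and Aebp1 (0.22), and Slc22a15 stood at 48.2 CPM in Stc1-label replicate 2 against 13.8 and 13.5 in WT.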

How the data were processed

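RNA extracted with Trizol was prepared with a TruSeq RNA kit, per the labels' protocols. HISAT2 2.0.5, Cufflinks, featureCounts and the build mm10 are named in the submitters' processing notes, without role or order. The deposited values are raw counts per Ensembl gene for all reads, genome 1 and genome 2. Neither the strand setting nor how reads were split by genome is given in the sources used here. Symbols, positions and exon lengths came from GENCODE M21 (GRCm38), which matched 49325 of 49670 genes, leaving unmatched rows with 0.014% or less of any library. The 9 members and the pathway lists were chosen with earlier results of these data known.

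Counts were fitted with edgeR 4.0.16 (R 4.3.3; TMM scaling, default filter, quasi-likelihood test, 1 mean per group over all 8 libraries, common biological coefficient of variation 24.6%), and a call needed a Benjamini-Hochberg adjusted p below 0.05 among 17839 genes. SE is the absolute log2 fold change divided by the root of F. Genome shares were fitted in edgeR with a term per library and a genome term per group, where each library held 20 or more reads of either genome; 329 genes whose genomes summed above all counts were left out. Shares between knockout labels, genome 1 counts and leaving out the Stc1-label pair were added after the data were seen. Alternatives were DESeq2 1.42.0, other scalings, filters and samples, a replicate term and each library left out. Median chi-squares within pairs (1.97 to 49, against 0.455 from counting) showed no repeated library. Named pathway genes were up to 3 called per list and comparison; likeness chose 4 genes each, of which 1 is not reported here. On simulated data, 91% of 4-fold shifts of genome odds were recovered for the Pygo1 label against WT among 12476 genes, with 6.19% false calls. The shifts were placed only in genes that used both genomes, with the same extra spread for all genes. That recovery therefore does not cover Pygo1, Bcl9l, Ctnnb1, Tcf7 and Lef1, which were read almost wholly from 1 genome. Figures used matplotlib 3.10.9.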

Additional observations from a re-analysis of the deposited data

Results flagged for a closer look

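The genome shares of 4 members differed between knockout labels by a test of the difference itself. Genome 1 gave 99.82% of the pooled Pygo2 reads in the Pygo1-label libraries, against 71.6% under Stc1 and 73.5% under Rlim (edgeR, adjusted p = 2.36e-05 and 1.96e-05). It gave 99.76% of the Bcl9 reads, against 73.3 and 72.2% (edgeR, adjusted p = 0.00022 and 0.000133), and 99.53% of the Tcf7l2 reads, against 74.8 and 72.6% (edgeR, adjusted p = 6.21e-05 and 4.5e-05). For Tcf7l1 it gave 100% under Rlim against 67.4% under Stc1 (edgeR, adjusted p = 0.0264). Of all genes tested, 9.19, 8.98 and 10.4% shifted toward genome 1 between Pygo1 and Stc1, Pygo1 and Rlim, and Rlim and Stc1. The chromosomes of these genes moved with them, as given above.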

How the results depend on the processing

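The genome shifts of Pygo2, Bcl9 and Tcf7l2 under the Pygo1 label passed under each alternative, and the calls on total counts depended on the libraries and the tool. Counts below follow the order Stc1, Pygo1 and Rlim against WT, then Pygo1 against Stc1 and against Rlim. The genes called were 103, 419, 250, 310 and 182. They became 361, 867, 610, 683 and 519 with no low-count filter, and 956, 1688, 1407, 1308 and 1113 in DESeq2. With the compared groups alone edgeR called 0, 1699, 8340, 0 and 972. Replicate numbers did not pair the libraries (correlations of replicate differences between groups from -0.173 to 0.214), and with a replicate block 18, 109, 26, 96 and 38 genes were called. Listed pathway genes called against WT were 0, 2 and 2. They were 4 under Stc1 with no filter, 1 and 1 under Pygo1 and Rlim at a mean of 1 CPM or more, 6, 7 and 5 in DESeq2, 7 and 43 under Pygo1 and Rlim with the compared groups alone, 0 and 0 there with the block, and 1 under Stc1 with each chromosome scaled to WT. Members called, 0 in each comparison, became 1 under Stc1, Rlim and Pygo1 against Stc1 in DESeq2, 3 under Rlim with the compared groups alone, and 1 for Pygo1 against Stc1 with chromosomes scaled. With both Stc1-label libraries left out, members called were 3 (Pygo1), 1 (Rlim) and 1 (Pygo1 against Rlim), genes 3676, 3050 and 2441, and listed genes 16 and 14. Genes with a shifted genome share (691, 2489 and 1488) became 1404 under Pygo1 and 5224 under Rlim with the compared groups alone, where 5 members passed under Rlim. With the block they were 385 under Stc1 and 550 under Rlim, with 0 members in each, and under Pygo1 the block ended the call of Bcl9l (edgeR, adjusted p = 0.0658) and made one of Ctnnb1 (0.0343). Chromosome scaling turned the log2 fold change of Ctnnb1 to -0.00726 (Stc1) and -0.0286 (Pygo1) and that of Bcl9 under Pygo1 to -0.119. Ctnnb1 under Pygo1 was -0.00232 with no filter, and the block turned Tcf7l2 for Pygo1 against Stc1 to 0.0106. The causes were not tested.

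Leaving out each library in turn gave 3 to 4484, 8 to 3678, 3 to 3036, 22 to 4087 and 7 to 2360 genes called, 0 to 6, 0 to 3, 0 to 1, 0 to 5 and 0 to 1 members, and 0 to 32, 0 to 17 and 0 to 14 listed genes. Genes with a shifted genome share were 94 to 1101, 974 to 4207 and 0 to 2284, with 0 to 2, 3 to 7 and 0 to 3 members, and members called on genome 1 counts were 0 to 5, 0 to 4 and 0 to 1. The number of all genes called was not kept for the genome 1 fits that left out a library. Their member counts therefore cannot be set against a background share. Directions turned within these ranges of log2 fold change. Under Stc1 they were -0.471 to 2.09 (Pygo1), -0.0216 to 1.14 (Bcl9l), -0.0805 to 0.337 (Ctnnb1), -1.12 to 0.286 (Tcf7l2) and -0.158 to 1.8 (Lef1). Under Pygo1 they were -1.87 to 0.0178 (Pygo1), -0.0693 to 0.184 (Bcl9), -0.0461 to 0.0553 (Ctnnb1) and -0.0764 to 0.851 (Tcf7l1). For Pygo1 against Stc1 they were -0.0935 to 0.501 (Pygo2), -0.68 to 0.48 (Bcl9l), -0.333 to 0.0849 (Ctnnb1), -0.364 to 0.401 (Tcf7), -0.612 to 0.792 (Tcf7l2) and -1.02 to 0.932 (Lef1), and against Rlim -0.225 to 0.0286 (Bcl9). For genome ratios they were -2.92 to 0.16 (Lef1, Pygo1 label), -0.572 to 2.6 (Pygo1, Pygo1 label) and -0.333 to 0.151 (Tcf7l2, Stc1 label). For genome 1 counts they were -0.0415 to 1.19 (Bcl9l), -0.0313 to 0.367 (Ctnnb1), -0.174 to 1.81 (Lef1), -0.609 to 2.17 (Pygo1) and -1.18 to 0.334 (Tcf7l2) under Stc1, -1.95 to 0.198 (Pygo1) under Pygo1, and -0.0216 to 0.0874 (Pygo2) and -0.0156 to 0.0424 (Tcf7l2) under Rlim. Depth limits Pygo1, with 32 reads of a known genome in Pygo1-label replicate 2.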
